A study of Saccharomyces cerevisiae with 51 samples.

Results

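The cytosolic ribosome of *Saccharomyces cerevisiae* is built from a large and a small subunit, whose proteins are encoded by the RPL and RPS genes. Many of these proteins are encoded by a pair of paralogous genes, named A and B, that date from an ancient genome duplication and make the same or nearly the same protein. The genes are known to be transcribed together through the factors Rap1, Fhl1, Ifh1 and Sfp1, under the control of the TORC1 kinase, which rapamycin inhibits. In the yeast metabolic cycle, a respiratory rhythm of dense continuous cultures, they are known for their burst in the oxidative phase, when cells prepare for growth.

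The genes were chosen by symbol alone: RPL or RPS followed by digits and, where present, A or B. This gave 132 genes of 6821 in the rapamycin table and of 6840 in the cycle table, 76 of the large and 56 of the small subunit. They form 57 paralogue pairs and 18 single-copy genes, 75 proteins in all. The stalk genes RPP0, RPP1A, RPP1B, RPP2A and RPP2B lie outside this rule and are described only beside them.

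RNA came from continuous cultures of the strain CEN.PK, wild type or ARP5::KAN (arp5∆, lacking a subunit of the INO80 chromatin remodeller), at 6 phases labelled RC start, RC mid, OX mid, OX late, RB start and RB late (RC reductive charging, OX oxidative, RB reductive building). Each phase has libraries A and B, prepared separately from RNA of a single culture per genotype. Their spread is technical, so p-values in the cycle measure technical error and not the variation between cultures. A separate set came from asynchronous mid-log BY4741 cultures, a control and cultures given 30 nM rapamycin for 45 or 90 min, with 2 biological replicates each. The treatment text of the control also mentions rapamycin; its title calls it a control, and the title was followed. ARP5 itself was between 46.4 and 55.7 FPKM in the 12 wild-type cycle libraries and at most 0.0649 FPKM in the 12 arp5∆ libraries. FPKM, the fragments per kilobase scaled by a factor for each library, is a relative level per length. Reads on genes, recovered from the steps in the values, ran from 5.08 to 9.84 M per cycle library and from 9.32 to 12.1 M per rapamycin library. The scaling factor, recovered in the same way, did not follow these reads. In wild type it was 5.07 M for 6.48 M reads in RC start library A, and 7.36 M for 6.09 M in RB start library B. Changes between libraries therefore depend on this scaling. In these bulk samples, fewer cells expressing a gene and less RNA per cell cannot be told apart.

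Some values need a limit before the results. In the rapamycin table's gene descriptions, 11 of the 132 genes overlap a dubious reading frame, and for 9 of these the dubious frame held at least 5% of the gene's own FPKM in the cycle table. RPL28, for example, averaged 2704 FPKM in the cycle table beside 2813 FPKM for the frame YGL102C, whereas in the rapamycin control they stood at 53.1 and 1.54 FPKM. RPL39 stood at 0.321 FPKM, RPL33A at 1.17, RPL43A at 2.33 and RPL22A at 2.85 FPKM in that control. The other overlapped genes of this set are RPL10, RPL12A, RPL12B and RPL36B. The 2 tables therefore do not hold comparable values for these 9 genes, all of the large subunit. For the rapamycin table, the main counts and medians and the ratio of subunit means are given with and without them. The shares of FPKM, the medians by subunit and the rescaled values include them. Paralogues can also share reads, and the counting of reads that match both copies was not given in the sources used here.

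Over the wild-type cycle the ribosomal protein genes rose and fell together, from a low at RC start to a burst at OX mid. They made up 3.99% and 4.02% of all FPKM in the RC start libraries, 12.1% and 12.4% at RC mid, and 33.8% and 33.6% at OX mid. The share was 28.1% and 28.6% at OX late, 18.1% and 17.8% at RB start and 5.76% and 5.92% at RB late. The libraries of a phase differed far less than neighbouring phases did. The arp5∆ culture followed another course under the same phase labels. Its share was highest at RC start (24.9% and 25.3%), fell to 7.12% and 7.03% at OX late and stood at 15.6% and 15.4% at RB late.

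**Figure D1:**
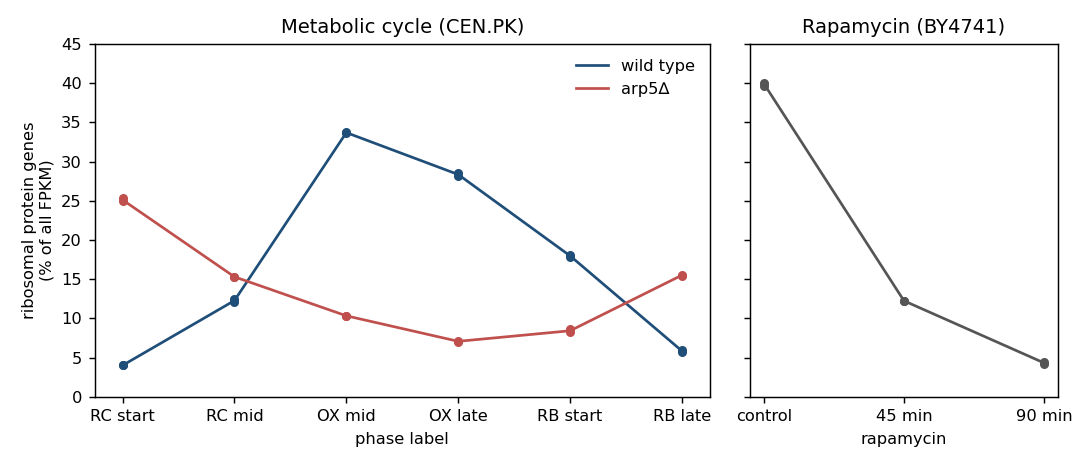
Share of all FPKM held by the ribosomal protein genes (vertical axis, %) by phase label in wild-type and arp5∆ cultures (left) and in the rapamycin experiment (right). Points are libraries and lines join their means: wild type peaked at OX mid (33.8% and 33.6%), arp5∆ at RC start (24.9% and 25.3%), and rapamycin lowered the share from 39.7% and 40.1% to 4.24% and 4.43%.

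All 132 genes cycled in wild type, by limma's F test over the phases. Genes were called where the Benjamini-Hochberg adjusted p was below 0.05, with a difference of 1 or more between the highest and lowest phase means of log2(FPKM + 1). Of all 6510 genes tested, 62.1% were called. Their median range was 3.18, against 1.34 for all genes tested. OX mid was the highest phase for 131 genes, the exception being RPL41A at OX late, and the lowest was RC start for 101 genes and RB late for 31. In arp5∆, 131 genes cycled, against 32.3% of all genes, with a median range of 2.02. RC start was the highest phase for all 132, and OX late was the lowest for 117. Every gene had the smaller range in arp5∆.

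The amplitude differed widely between genes. RPS26B, a small-subunit gene, had the widest wild-type range (5.28), followed by RPL9A (4.93), RPS22A (4.54), RPL31B (4.09), RPL21A (4.05) and RPL26B (3.97). RPS26B was at 134 and 126 FPKM at RC start, 865 and 889 at RC mid, 5019 and 5171 at OX mid, 2712 and 2741 at OX late, 1332 and 1351 at RB start and 253 and 257 at RB late. In arp5∆ it was highest at RC start, at 2490 and 2371 FPKM, and lowest at OX late, at 423 and 421 FPKM. The narrowest ranges were those of RPL15B (1.18), RPL41A (1.88), RPL41B (1.89), RPS30A (1.98), RPS25A (2.09) and RPS28A (2.12). RPL41A and RPL41B encode the smallest ribosomal protein and had the highest FPKM, with wild-type means of 8858 and 10173. Both are 78 bases long, and FPKM divides by length, so their high FPKM need not mean more reads. RPL41A was at 12509 and 12140 FPKM at OX mid and at 14554 and 14927 FPKM at OX late, so that its libraries of these phases did not overlap. RPL15B had the lowest mean (138 FPKM), ahead of RPL18B at 278 FPKM.

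**Figure D2:**
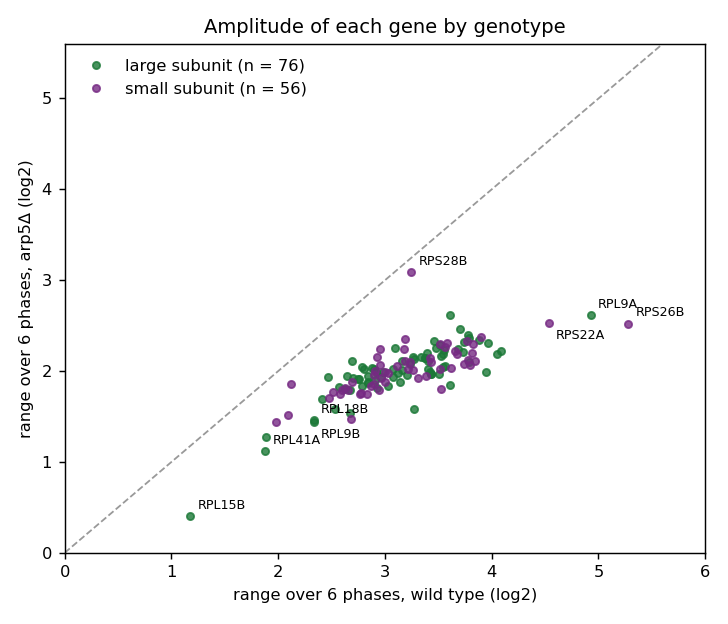
Range over the 6 phase means of each gene in wild type (horizontal axis, log2) and in arp5∆ (vertical axis, log2), with 1 point per gene coloured by subunit. All 132 points lie below the dashed line of equal range, with RPS28B nearest to it (3.25 and 3.09) and RPL15B lowest (1.18 and 0.41).

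Genes with special roles followed the common course. RPS31, which encodes ubiquitin fused to a small-subunit protein, ran from 754 and 784 FPKM at wild-type RC start to 11086 and 10996 FPKM at OX mid. RPL40A and RPL40B, which encode ubiquitin fused to a large-subunit protein, had ranges of 2.53 and 2.92. RPL3 and RPL5, whose proteins join the large subunit early and with the 5S rRNA, had ranges of 3.43 and 3.73. RPL30, whose protein is known to inhibit splicing of its own transcript, had a range of 3.42 in wild type and 1.99 in arp5∆.

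In arp5∆ all 132 genes had an unadjusted p under 0.05 by limma's F test over the phases. RPL15B was the gene not called there, with a range below the required 1. Its wild-type libraries lay between 92.2 FPKM at RB late and 215 FPKM at OX mid, and its arp5∆ libraries between 85.3 and 127 FPKM, a range of 0.41 on the log2 scale. Its partner RPL15A ran from 483 to 5968 FPKM in wild type. RPS28B, encoding a small-subunit protein whose own mRNA is known to be under feedback decay, had nearly as wide a range in arp5∆, 3.09 beside 3.25. Its lowest phase in arp5∆ was RC mid, where no other of the genes was lowest.

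All 132 genes took a different course in the arp5∆ culture, by limma's F test of the interaction (74.0% of all genes passed). The range of the genotype difference had a median of 4.69. At each phase label except RC mid the direction was nearly uniform. At RC start, 127 genes were higher in arp5∆ (19.2% of all genes were), with a median log2 difference of 2.44. The other 5 were RPL9B (0.59), RPL15B (0.21), RPL18B (0.36), RPL41A (0.94) and RPS9A (0.74). At OX mid all 132 were lower (22.0% of all genes), with a median of -2.26, and at OX late 131 were lower (13.5%), with a median of -2.14. At RB start 83 were lower (8.69%) and at RB late 106 were higher (11.3%), with medians of -1.05 and 1.24. Under quantile normalization 52 were lower at RB start. The directions hold for the libraries as labelled, and the arp5∆ profile does not line up with the wild-type labels.

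At RC mid the groups of libraries were close, with a median difference of -0.24. There 9 genes were lower in arp5∆ (11.1% of all genes were), and none was higher. RPS28B differed most: it was at 588 and 703 FPKM in wild type and at 77.4 and 74.3 FPKM in arp5∆, a log2 difference of -3.07 ± 0.07 (SE, n = 2 libraries each; limma adjusted p = 3.65e-16). The others were RPS9A (-1.81), RPL22B (-1.72), RPL7B (-1.59), RPL8A (-1.55), RPL18B (-1.45), RPS14B (-1.43), RPL9B (-1.20) and RPS22B (-1.20). With FPKM rescaled to equal sums, which moved the median of all genes at RC mid to 0.52, 4 genes were lower and 4 higher, and with quantile normalization 6 were lower and 2 higher. The members' median was then 0.31 and 0.20.

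Averaged over the cycle with the phase as a block, no gene passed the test, where 1.52% of all genes did. The differences in course between the genotypes form the error of this test, so it cannot show that the average levels are equal. The median difference of arp5∆ from wild type was -0.33, and 1 gene had an unadjusted p under 0.05. RPL18B had the lowest value, -1.66 ± 0.54 (SE, 6 phases; limma adjusted p = 0.19). With the arp5∆ series moved by 2 or by 3 positions, 4 and 5 genes passed, all lower. Of all 6510 genes tested, 289 and 267 then passed in either direction.

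The medians of the subunits lay close together, and their difference was not tested. The median wild-type range was 3.19 for the 76 large-subunit and 3.18 for the 56 small-subunit genes, and in arp5∆ it was 2.01 and 2.02. Per protein, with paralogues summed, the mean level of the large subunit was 0.958 to 1.12 times that of the small subunit in the 12 wild-type libraries and 0.961 to 1.05 times in the 12 arp5∆ libraries. The ratio of means was lowest at OX mid in wild type (0.960 and 0.958) and at RC start in arp5∆ (0.961 and 0.972). The ratio of medians over proteins did not follow it: in wild type it was 0.899 and 0.881 at OX mid and lowest at RB late, at 0.797 and 0.794. In the rapamycin libraries the ratio of means was 0.760 to 0.828, and 0.899 to 0.968 without the proteins that hold an overlapped gene. The ratio of medians there was 0.817 to 0.873. The levels of the 75 proteins were most even at the peak: the 90th percentile was 2.27 and 2.26 times the 10th at wild-type OX mid and 3.35 and 3.31 times at RC start. The 88 genes with an intron had a median wild-type range of 3.14, and the 44 without had 3.28.

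Neighbouring gene classes give the scale. All 7 stalk and ribosome-bound genes cycled in wild type, with a median range of 3.22. The 63 ribosome biogenesis genes, which act in ribosome assembly, all cycled with a wider median range of 4.76. They left the peak sooner: at wild-type OX late their median level was 17.6% of that at OX mid, beside 64.8% for the ribosomal protein genes, and at RB start 13.1% beside 36.2%. Of 16 regulators, 6 cycled in wild type, or 37.5% beside 62.1% of all genes tested. They were the coactivator IFH1 (3.74), the corepressor CRF1 (4.27), the repressors TOD6 (4.25), DOT6 (1.68) and STB3 (1.42), and REB1 (1.02). RAP1, FHL1 and SFP1 did not pass, with ranges of 0.46, 0.89 and 0.95.

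The copies of a pair did not contribute equally, and the split shifted over the cycle. In all 12 wild-type libraries the A copy was higher in 21 pairs and the B copy in 17. In the other 19 pairs the higher copy differed between single libraries, which need not mean a switch between phases. The range of log2(A/B) over the wild-type phases had a median of 0.81 and was at least 1 in 18 pairs. The largest difference between the libraries of a phase was 0.38 for any pair, and in all 57 pairs the range over phases was larger than the pair's own largest such difference. In arp5∆ 9 pairs had a range of at least 1 and the median was 0.53. No test was made over pairs.

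RPL9 shifted most. RPL9A lies on chromosome VII from 227754 to 228329 and RPL9B on chromosome XIV from 499681 to 500256 (RefSeq R64), both without an intron. RPL9A was at 116 and 106 FPKM at wild-type RC start and at 3425 and 3391 FPKM at OX mid, while RPL9B was at 843 and 819 and then at 2621 and 2591 FPKM. By RB late they were at 158 and 157 FPKM and at 513 and 522 FPKM. The A copy thus went from 11.8% to 56.7% of the pair. RPS26 moved the other way, because the B copy had the wide range: RPS26A was 87.1% of the pair at RC start and 54.0% at OX mid. RPS22A went from 44.4% to 74.4% of its pair, and RPL15A from 82.1% to 96.5%. RPS22 changed sides by RC mid and RPL9 by OX mid, RPS26 came near equal copies, and RPL15 became more unequal. RPL15 was also the most unequal pair, with a mean log2(A/B) of 3.73, and RPS28 (2.46) and RPS25 (2.24) were also far from equal.

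**Figure D3:**
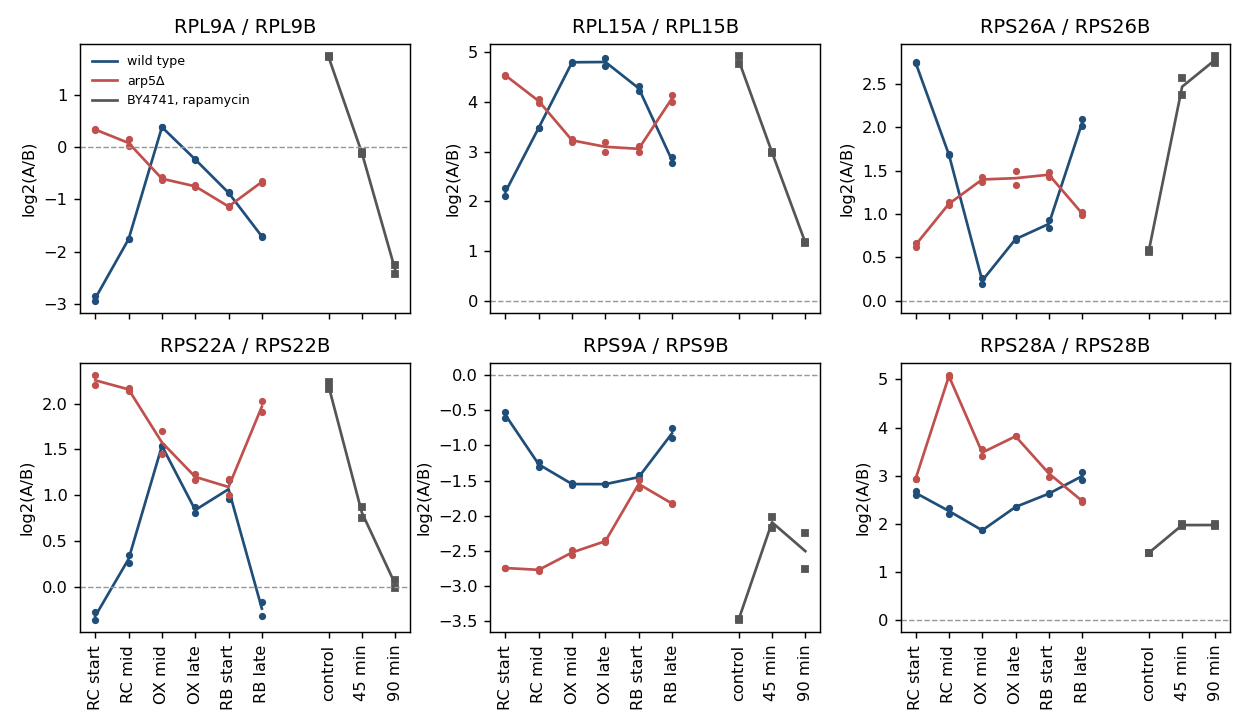
log2(A/B) of FPKM (vertical axes) by phase label in wild type and arp5∆ and by time in rapamycin, for 6 pairs. Points are libraries and lines join means; RPL9 runs from -2.89 to 0.39 in wild type, and the mean of RPS9 is -1.20 in wild type and -2.30 in arp5∆.

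Some pairs split differently in the genotypes. RPL22, which holds an overlapped gene, had a mean log2(A/B) of 1.43 in wild type and 2.53 in arp5∆, higher in 6 of 6 phases, and the libraries of the genotypes did not overlap. RPL22B was at 1612 and 1564 FPKM at wild-type OX mid, and at 84.9 and 84.0 FPKM at arp5∆ OX mid. In RPS22 (0.53 and 1.71) the B copy and in RPS9 (-1.20 and -2.30) the A copy took a smaller share in arp5∆ in 6 of 6 phases, although libraries of different phases overlapped. RPL7 and RPS28 changed by 1.03 and 1.01, in 5 of 6 phases. RPL19 and RPS21 had smaller differences without overlap, -0.26 and -0.38. RPL2 and RPL40 changed little, by 0.23 and -0.04.

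Rapamycin lowered almost all of the genes. Their share of FPKM was 39.7% and 40.1% in the control, 12.3% and 12.2% at 45 min and 4.24% and 4.43% at 90 min. Of 132 genes, 130 passed the filter of a mean of at least 1 FPKM; RPL33A and RPL39, both overlapped, did not. At 45 min 126 were lower by limma's test (13.7% of all 6333 genes were), with a median log2 change of -2.43, and at 90 min 128 (16.8%), with a median of -3.94. Between 45 and 90 min 111 fell further (4.69%), with a median of -1.49. Without the overlapped genes, 121, 122 and 106 of 123 were lower, with medians of -2.44, -3.96 and -1.53. With the tested overlapped genes left in, all of the large subunit, the large and small subunits had medians of -3.87 and -4.07 at 90 min. These comparisons share the control or the 45 min libraries. The size of the fall depended on the scaling. Under quantile normalization 99 of 130 genes were lower at 45 min, with a median of -1.37, and 127 at 90 min, with a median of -2.97. With FPKM rescaled to equal sums the medians at 45 and 90 min were -1.83 and -3.31.

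The largest fall was that of RPL9A, at 4343 and 4286 FPKM in the control, 437 and 425 at 45 min and 37.2 and 44.8 at 90 min. Its log2 change at 90 min was -6.69 ± 0.08 (SE, n = 2 each; limma adjusted p = 2.06e-09). RPS26B (-5.97), RPS22A (-5.54), RPS3 (-5.43) and RPL5 (-5.26) followed. RPS3 and RPL5 encode an entry-channel protein of the small subunit and the 5S rRNA binding protein of the large subunit. At 45 min the largest falls were in RPS26B (-3.94), RPL12A (-3.73, an overlapped gene), RPL31B (-3.42), RPL13A (-3.35) and RPL9A (-3.32).

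RPL15B did not pass. It was at 241 and 221 FPKM in the control and at 156 and 159 FPKM at 90 min, a log2 change of -0.55 ± 0.06 (SE, n = 2 each; limma adjusted p = 8.72e-05), below the fold required. Without 1 of the libraries the call of a few genes was lost. RPL41B at 45 min changed by -1.07 ± 0.15 (SE, n = 2 each; limma adjusted p = 0.00041) and by -0.92 without replicate 1 of 45 min. RPL43A at 90 min, at -1.30, was no longer called after leaving out any control or 90 min library, with values from -1.37 to -1.22. The other small falls at 90 min were those of RPS30A (-2.14) and RPS23A (-2.17), and of the overlapped genes RPL22A (-0.98) and RPL43A (-1.30), which rest on very low values. RPS23A and its partner parted late: RPS23A changed by -0.39 between 45 and 90 min and RPS23B by -1.99. RPS25B fell by 2.93 within 45 min and changed by 0.04 after that.

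**Figure D4:**
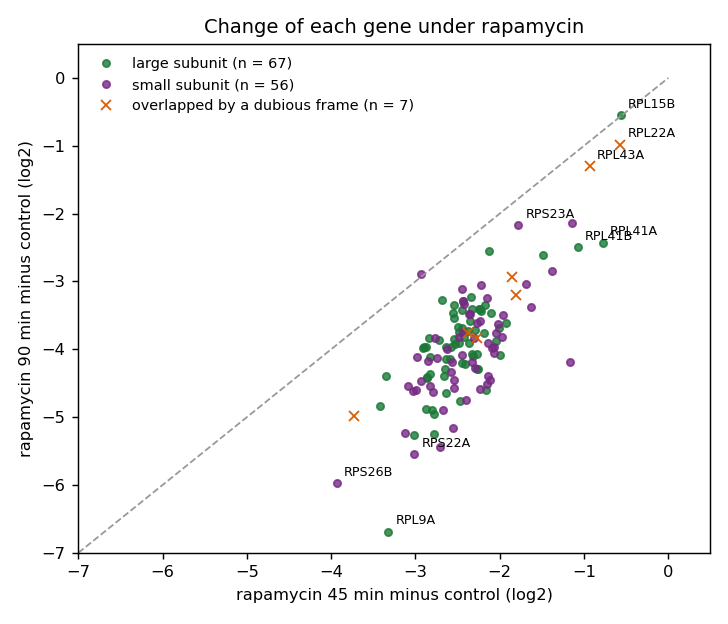
log2 change of each gene at 45 min (horizontal axis) and at 90 min (vertical axis) of rapamycin against the control; crosses are overlapped genes and the dashed line marks equal change. Nearly all points lie below the line, RPL9A lowest at -6.69, and RPL15B is nearest to no change at -0.55.

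Ribosome biogenesis genes fell by 45 min too. All 63 were lower at 45 min (median -3.34) and at 90 min (median -3.34), and none passed limma's test between these times, where the median change was -0.01. Of the 16 regulators, 4 passed at 90 min, or 25% beside 35.0% of all genes tested. RAP1 and FHL1 were lower (-1.41 and -1.06), TOD6 was lower (-2.98), and CRF1 was higher (1.27). IFH1 did not pass at 90 min: it was at 66.4 and 66.7 FPKM in the control, 25.5 and 23.5 at 45 min and 36.5 and 36.2 at 90 min. SFP1 was at 54.3 and 52.6 FPKM in the control and at 48.6 and 47.4 FPKM at 90 min.

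The copy ratio shifted under rapamycin as well. Among the 52 pairs without an overlapped gene, 15 changed by at least 1 in log2(A/B) at 90 min, and the largest difference between biological replicates was 0.52. RPL9A fell from 76.9% of its pair to 48.2% at 45 min and 16.2% at 90 min, and RPL15A from 96.6% to 88.9% and 69.3%. RPS26A rose from 59.9% to 84.7% and 87.4%. RPS22 changed by -2.16, RPL26 by 1.98 and RPS23 by 1.89 at 90 min. RPS25 changed by 1.55 at 45 min and 0.04 at 90 min.

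The shifts in the cycle and under rapamycin, which share no library, ran in parallel. Across the 52 pairs, the change of log2(A/B) from RC start to OX mid in wild type and the difference of control from 90 min had Pearson's r of 0.82 and Spearman's rho of 0.73, with the same sign in 43 pairs. Without RPL9, RPL15, RPS26 and RPS22, left out after their values were seen, r was 0.63 over 48 pairs. This is a description across pairs, which share libraries and, within a pair, possibly reads, and the strains differ.

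**Figure D5:**
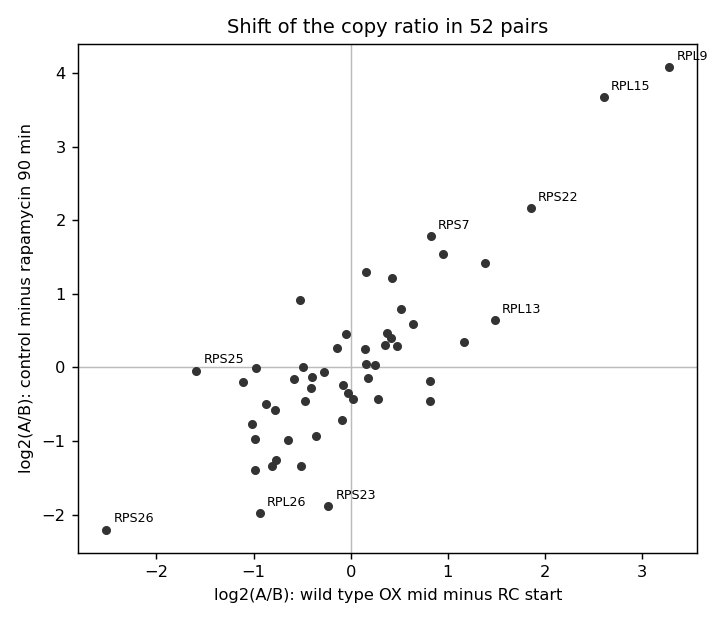
Change of log2(A/B) from RC start to OX mid in wild type (horizontal axis) and the control minus 90 min of rapamycin (vertical axis), with 1 point for each of the 52 pairs without an overlapped gene. RPL9 and RPL15 lie at the upper right and RPS26 at the lower left, and 43 pairs have the same sign on both axes.

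The stronger copy of a pair differed between the wild-type cycle mean and the BY4741 control in 8 of these 52 pairs: RPL4, RPL9, RPL11, RPL21, RPS0, RPS1, RPS16 and RPS29. Strain, growth and table differ together here and cannot be told apart.

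Chromatin accessibility (ATAC, normalized values per gene) was available for 131 of the genes. Its 24 columns give the genotype but not the phase, so 12 columns were compared with 12 and p-values, which count technical replicates as samples, are too small. In arp5∆ 2 genes were higher and 17 lower by at least 0.5 (10.6% and 9.19% of all 5193 genes), with a median of -0.02. RPS8B was lowest (-0.95), followed by RPS29B (-0.90) and RPS25B (-0.87).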

How the data were processed

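The authors deposited FPKM values for the cycle and rapamycin RNA libraries and a normalized ATAC signal per gene. The submitters' processing notes name Bowtie2, DESeq2, Picard and sacCer3, with no version. The counting method, strand and treatment of shared reads were not given in the sources used here. Tables were joined by systematic name, and gene positions come from RefSeq R64. A gene was counted as having an intron where its RefSeq length exceeded the length recovered from the steps in its FPKM values. The RNA values were tested within each table as log2(FPKM + 1), keeping genes whose mean reached 1 FPKM, with limma 3.58.1 in R 4.3.3 (intensity-trended moderation, Benjamini-Hochberg over all genes). A call needed an adjusted p under 0.05 and a log2 change or range of at least 1 (ATAC 0.5). Fold changes understate low genes. Gene lists, and the rule for named genes (extremes of level, range, change and copy ratio, exceptions to each call, and a short fixed list), were chosen with earlier results of these data known. Paralogue ratios are log2((A + 1)/(B + 1)) and were not tested. Whole reads (within 0.1 of a read) were recovered for 95.5% to 96.5% of values, and used only for depth and for these recovered lengths. The scripts were tested on simulated data. Results for 1 gene and its pair are not reported here.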

Additional observations from a re-analysis of the deposited data

Results flagged for a closer look

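Of 132 ribosomal protein genes, 132 took a different course in arp5∆ and wild type, by limma's F test of the interaction, as did 74.0% of all genes tested. The range of the genotype difference over the phases was largest in RPS26B (7.36), RPL9A (7.09) and RPS22A (6.46) on the log2 scale. It was smallest in RPL15B (1.28), RPL41B (2.79) and RPL41A (2.93). Each genotype is a single culture, so genotype and culture cannot be told apart.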

How the results depend on the processing

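Across the alternatives, 407 of 415 recomputed answers counted as unchanged. For calls this meant the same majority direction of called genes and a percent called within 1.5 times. For pairs it meant a count within 1.5 times, and for subunits a difference moved by less than the spread between replicates. RC mid under quantile normalization thus counted as unchanged, although the members' median became 0.20. Under quantile normalization the percent lower in arp5∆ at RB start was 39.4 rather than 62.9. At RC mid the percent called in either direction was 6.06 with FPKM rescaled to equal sums, with 4 genes lower and 4 higher. It was 0 with pairs summed, rather than 6.82. Over the cycle the percent called was 3.03 and 3.79 with the arp5∆ series moved by 2 and 3 positions, rather than 0. Of all 6510 genes tested, 289 and 267 were called with these moves. The cause was not tested. The median range of the large minus the small subunit was 0.00201, and 0.144 under quantile normalization, -0.0541 with pairs summed and 0.0760 without overlapped genes, an alternative chosen after seeing the data. Leaving out each library in turn gave 50.8 to 72.7 percent at RB start. With FPKM rescaled to equal sums, the median of all genes was 0.64 at 90 min of rapamycin, beside 0.02 as deposited. The libraries A and B share only a letter (66 pairs of same-lettered libraries, median r 0.03, 8 over 0.1); with the replicate block, 9 of 9 answers kept their call, and so did the 88 values for named genes. Leaving out pairs with identical proteins and searching promoter motifs were not run, since no sequences were used here. The least covered of the genes had at least 122 reads in every cycle library and 0 to 3 in the rapamycin libraries, where overlapped genes are near 0.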
